A study of Mus musculus with 60 samples.

Results

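The imprinted growth genes Dlk1, Meg3, Rian, Peg3, Zim1, H19, Igf2, Cdkn1c, Plagl1 and Grb10 were followed through a whole-tissue RNA-seq survey of the mouse. They were taken by gene symbol from the combined count table, which gave 10 rows of 54532 genes. The survey covered 15 tissues with 4 libraries each, 60 in all, from female C57BL6/J mice aged 6 weeks that had been perfused through the heart with PBS and 1 mM EDTA. The design text speaks of 4 mice, the labels name no treatment or genotype, and every tissue shares the same strain, sex and age. The tissues were brain, heart, skin, female reproductive tract, lung, kidney, liver, colon, small intestine, mesenteric and inguinal lymph node, spleen, thymus, bone marrow and blood. Blood is called PBMC in the titles and whole blood in the tissue label. No younger animals are included, so the levels are those after weaning, and a decline with age was not measured. Libraries were made from the 3′ ends of transcripts with barcoded oligo(dT) primers. Assigned reads numbered from 353605 in replicate 3 of the female reproductive tract to 5211133 in replicate 1 of inguinal lymph node, with a median of 2649668. Levels are given as CPM (read counts scaled to library size), each library scaled by the trimmed mean of M-values (TMM). In 14 of 15 tissues all libraries lay above every library of the other tissues in the summed markers of that tissue, and the exception was mesenteric lymph node, which shares its list of lymph node stroma genes with inguinal lymph node. In tissue lysates, fewer cells of a type and less RNA per cell cannot be told apart, and no reads of these inbred mice tell the maternal from the paternal copy.

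Genomic imprinting leaves a gene active on only the copy inherited from the mother or only that from the father. Many imprinted genes control fetal growth: as a rule those active on the paternal copy, such as Igf2, Dlk1, Peg3 and Plagl1, promote it or shift resources to it, while those active on the maternal copy, such as H19, Cdkn1c and Grb10, hold it back. In mice several of these genes are known to be strongly transcribed before birth and to be turned down in most organs as growth slows, while some stay active in the brain. They lie in clusters. Dlk1, Meg3 and Rian share a cluster on chromosome 12, where Meg3 begins 77.7 kb after the end of Dlk1 and Rian 32.2 kb after the end of Meg3. Zim1 and Peg3 lie 7.44 kb apart at one end of chromosome 7. H19 and Igf2 lie 72.6 kb apart near the other end of chromosome 7, with Cdkn1c 792 kb from Igf2. Plagl1 is on chromosome 10 and Grb10 on chromosome 11.

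Promoter windows of 250 bases before to 50 bases after the transcript start were listed for 8 of the 10 members in the RefSeq table for GRCm38.p6, and 1 window each of Meg3 and Peg3 is shown because, among the 4 genes with their highest mean in brain, these are the windows with a match to a motif searched. A second Meg3 window (chr12:109545148-109545447) and the windows of Rian and Dlk1 hold no match, which says only that these letters are not in them. Capitals mark matches to the motifs searched, which were the TATA box (TATAAA), a core known as the CCAAT box, the cyclic AMP response element (TGACGTCA), a core bound by the factor YY1 (GCCATNTT) and a core bound by the Plagl1 protein (GGGGCCCC), each on both strands. The Meg3 window is chr12:109540746-109541045 on the plus strand, and the Peg3 window is chr7:6730370-6730669 on the minus strand.
Meg3 promoter: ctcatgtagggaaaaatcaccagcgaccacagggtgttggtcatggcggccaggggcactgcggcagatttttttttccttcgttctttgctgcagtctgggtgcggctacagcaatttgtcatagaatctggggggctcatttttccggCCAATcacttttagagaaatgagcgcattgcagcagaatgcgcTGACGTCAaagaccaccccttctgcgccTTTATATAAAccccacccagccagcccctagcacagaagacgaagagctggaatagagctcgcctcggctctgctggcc
Peg3 promoter: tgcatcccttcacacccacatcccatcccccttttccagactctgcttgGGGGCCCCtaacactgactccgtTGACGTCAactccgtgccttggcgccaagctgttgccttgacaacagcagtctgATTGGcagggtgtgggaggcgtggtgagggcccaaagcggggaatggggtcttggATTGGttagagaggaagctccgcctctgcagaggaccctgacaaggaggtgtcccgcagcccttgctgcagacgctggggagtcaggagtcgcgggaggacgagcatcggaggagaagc
Both windows hold the cyclic AMP response element, which was present in 1.79% of 32851 RefSeq promoters. The Meg3 window also holds the TATA box on both strands, with the copies overlapping, and a CCAAT box; the TATA box was present in 13.6% and the CCAAT box in 37.4% of the same promoters. The Peg3 window holds the CCAAT box in reverse in 2 places and the Plagl1 core, which was present in 1.08% of promoters. A match describes the letters of the window only. The YY1 core, present in 6.05% of promoters, was found in neither window.

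The noncoding members are also templates for microRNAs, which the oligo(dT) libraries were not designed to measure. They are shown because an H19 or Meg3 transcript counted here is the host of these short products. Capitals mark the seed, bases 2 to 8 of the mature RNA.
mmu-miR-675-5p, within H19: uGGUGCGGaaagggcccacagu
mmu-miR-675-3p, within H19: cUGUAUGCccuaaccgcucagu
mmu-miR-770-5p, within Meg3: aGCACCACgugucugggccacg
mmu-miR-770-3p, within Meg3: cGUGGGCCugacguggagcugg
mmu-miR-370-3p, within the Rian locus: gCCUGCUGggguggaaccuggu
No 2 of these 5 share a seed.

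**Figure D1:**
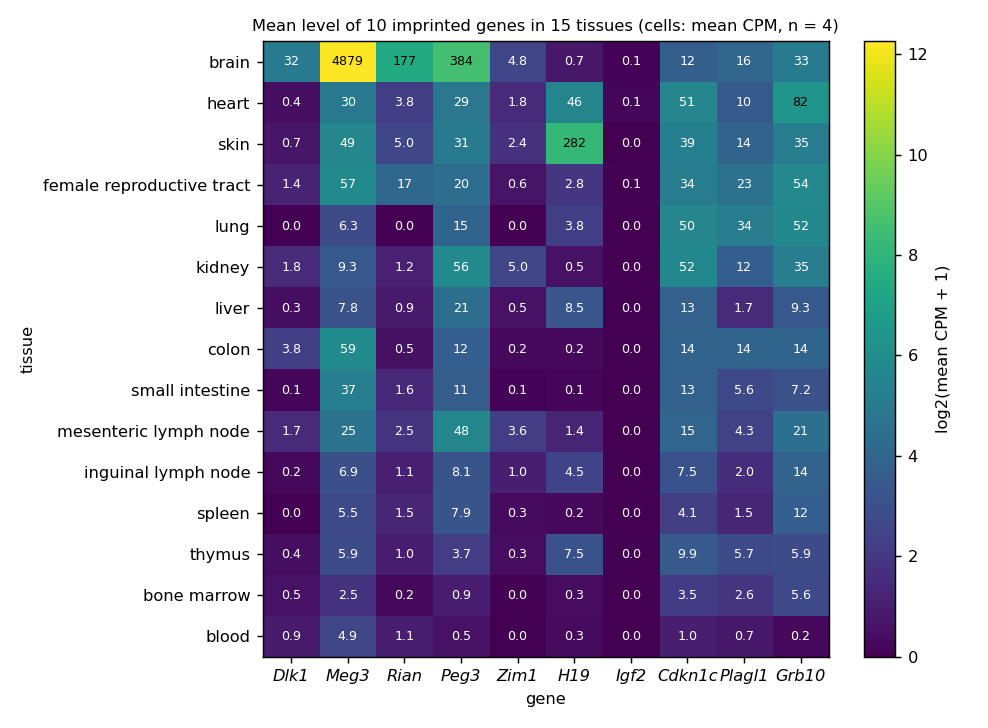
Mean level of each member (columns) in each tissue (rows); the number in a cell is the mean CPM of 4 libraries and the colour is log2(mean CPM + 1). Meg3, Rian, Peg3 and Dlk1 have their highest mean in brain, H19 in skin and Grb10 in heart, and the Igf2 column is at or near 0 throughout; colours are to be compared down a column and not between genes.

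Meg3, Rian, Peg3 and Dlk1 had their highest mean in brain, and in all 4 genes every brain library lay above every library of the other 14 tissues. For comparison, 12.3% of the 18562 genes tested were separated from the rest in that way in brain. H19 was highest in skin, Grb10 in heart and Plagl1 in lung, again with no overlap with any other library, so that 7 of the 9 tested members were separated in 1 tissue, against 48.8% of all genes tested. Zim1 and Cdkn1c had their highest mean in kidney and overlapped with other tissues. Igf2 had 3 reads in all 60 libraries and was not tested.

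Each tissue was then tested against the other 14 with edgeR's quasi-likelihood F test. The reference was the equally weighted mean of their fitted log levels, not of their CPM. A gene was called at a Benjamini-Hochberg adjusted p below 0.05 with a log2 fold change beyond 1 in either direction. In brain 7 of 9 tested members were called higher, where 27.7% of all genes tested were called higher. The members not called there were Cdkn1c, at 12.01 ± 2.28 CPM (SD, n = 4), and H19, at 0.742 ± 0.365 CPM. H19 was called lower in brain under some alternative settings. The middle member of the 9 in brain was Zim1 at a fitted log2 fold change of 3.43, beside a median of 0.03 over all genes; Zim1 had no reads in 3 tissues, so its fitted value depends on the prior count. In skin 8 of 9 were called higher, against 18.4% of all genes, with a median member log2 fold change of 1.43 beside -0.04 over all genes. Across the 15 comparisons 45 of 135 member tests were called higher and 29 lower, where 19.4% of the tests over all genes were called higher and 11.2% lower. Among these, Zim1 had 5 higher and 0 lower calls, Rian 4 and 1, and Dlk1 4 and 0. These genes had tissues with 0 reads. Such tissues enter the mean to which a higher call is compared, and they leave most tests of a lower level uninformative.

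Meg3, a maternally expressed noncoding RNA (chr12:109541001-109571726, plus strand, mm10), stood furthest apart. Its level was 4848, 4667, 4775 and 5224 CPM in the 4 brain libraries, a mean of 4879 ± 242 CPM (SD). The next tissue was colon with 50.01, 67.98, 67.2 and 52.6 CPM, so the brain mean was 82.1-fold higher. Brain alone made up 94.1% of the sum of the 15 tissue means. Against the other tissues the log2 fold change in brain was 8.53 ± 0.12 (SE, adjusted p = 3.5e-53). Meg3 was nevertheless detected in all 60 libraries. Below brain, colon, female reproductive tract (56.8 ± 27.4 CPM), skin (49.2 ± 8.71 CPM) and small intestine (37.2 ± 11.4 CPM) followed with overlapping libraries. Each was called higher than the mean of the log levels of the others, in which brain weighs less than in a mean of CPM. The small intestine call, at a log2 fold change of 1.01 ± 0.22, sat at the threshold and was lost with DESeq2's size factors, library totals, no filter, DESeq2's Wald test and limma, at 0.81 to 0.98. Lowest was bone marrow, where the 4 libraries held 3.71, 3.02, 1.496 and 1.69 CPM. An antisense gene model, Gm26906, covers 426 of the last 500 exonic bases of Meg3; no reads were assigned to it, and the strand setting of the counting is not known.

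Rian, a maternally expressed noncoding RNA that hosts small nucleolar RNAs and microRNAs (chr12:109603940-109661716, plus strand), was also highest in brain. Brain libraries held 171, 181, 177 and 177 CPM, with a mean of 177 ± 4.09 CPM. The female reproductive tract came next with 12.8, 8.15, 33.2 and 12.8 CPM and did not overlap with brain above it or with skin below it, where the libraries held 5.37, 3.81, 6.12 and 4.73 CPM. The brain mean was 10.5-fold that of the female reproductive tract. The value of 33.2 CPM in that mean came from replicate 3, the library with the fewest assigned reads of all (353605). Colon, second in Meg3, held 2 Rian reads in its 4 libraries, a mean of 0.469 CPM. No Rian read was found in the 4 lung libraries, where 3 counts over the group would be 0.577 CPM, so that brain was at least 306-fold higher than lung. Rian was called higher in brain, female reproductive tract, skin and heart, and lower in lung. The heart call (mean 3.83 ± 1.54 CPM) was lost without heart replicate 3, at an adjusted p of 0.059, under library totals and with limma.

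Dlk1, a paternally expressed membrane protein with EGF repeats that restrains the maturation of fat cells (chr12:109452823-109463336, plus strand), was detected in 33 of 60 libraries. In brain it reached 30.2, 32.7, 29.2 and 35.5 CPM, a mean of 31.9 ± 2.82 CPM. Colon was next at 0.848, 6.18, 3.36 and 4.78 CPM, and brain was 8.42-fold higher. Lung and spleen had no Dlk1 reads, and with 3 counts over the spleen libraries equal to 0.220 CPM the brain level was at least 145-fold that of spleen. Calls of higher Dlk1 were made in brain (adjusted p = 7.7e-24), colon (adjusted p = 0.0011), kidney and mesenteric lymph node (both adjusted p = 0.017). The kidney call rests on replicate 4, which held 6.36 CPM while the other 3 libraries held at most 0.677 CPM. Mesenteric lymph node had 0, 2.18, 3.46 and 1.28 CPM, and its call was lost without replicate 3, at a log2 fold change of 0.98. The same call was also lost with DESeq2's Wald test, at an adjusted p of 0.14, and with limma, at a log2 fold change of 0.44. All tissues below brain overlapped with their neighbours in the order of Dlk1 levels.

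Other transcripts of the chromosome 12 cluster, which were taken from a list of 32 further imprinted genes, had their highest mean in brain as well where they were detected above background. Mirg, a noncoding RNA downstream of Rian, averaged 29.9 ± 1.37 CPM in brain and 1.35 CPM in skin, the next tissue. Rtl1, a retrotransposon-derived protein gene between Meg3 and Rian, averaged 8.65 ± 1.60 CPM in brain and 0.257 CPM in colon. Dio3, which inactivates thyroid hormone at the far end of the cluster, differed: its highest mean was 2.58 ± 1.43 CPM, in the female reproductive tract, with 1.37 CPM in brain.

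**Figure D2:**
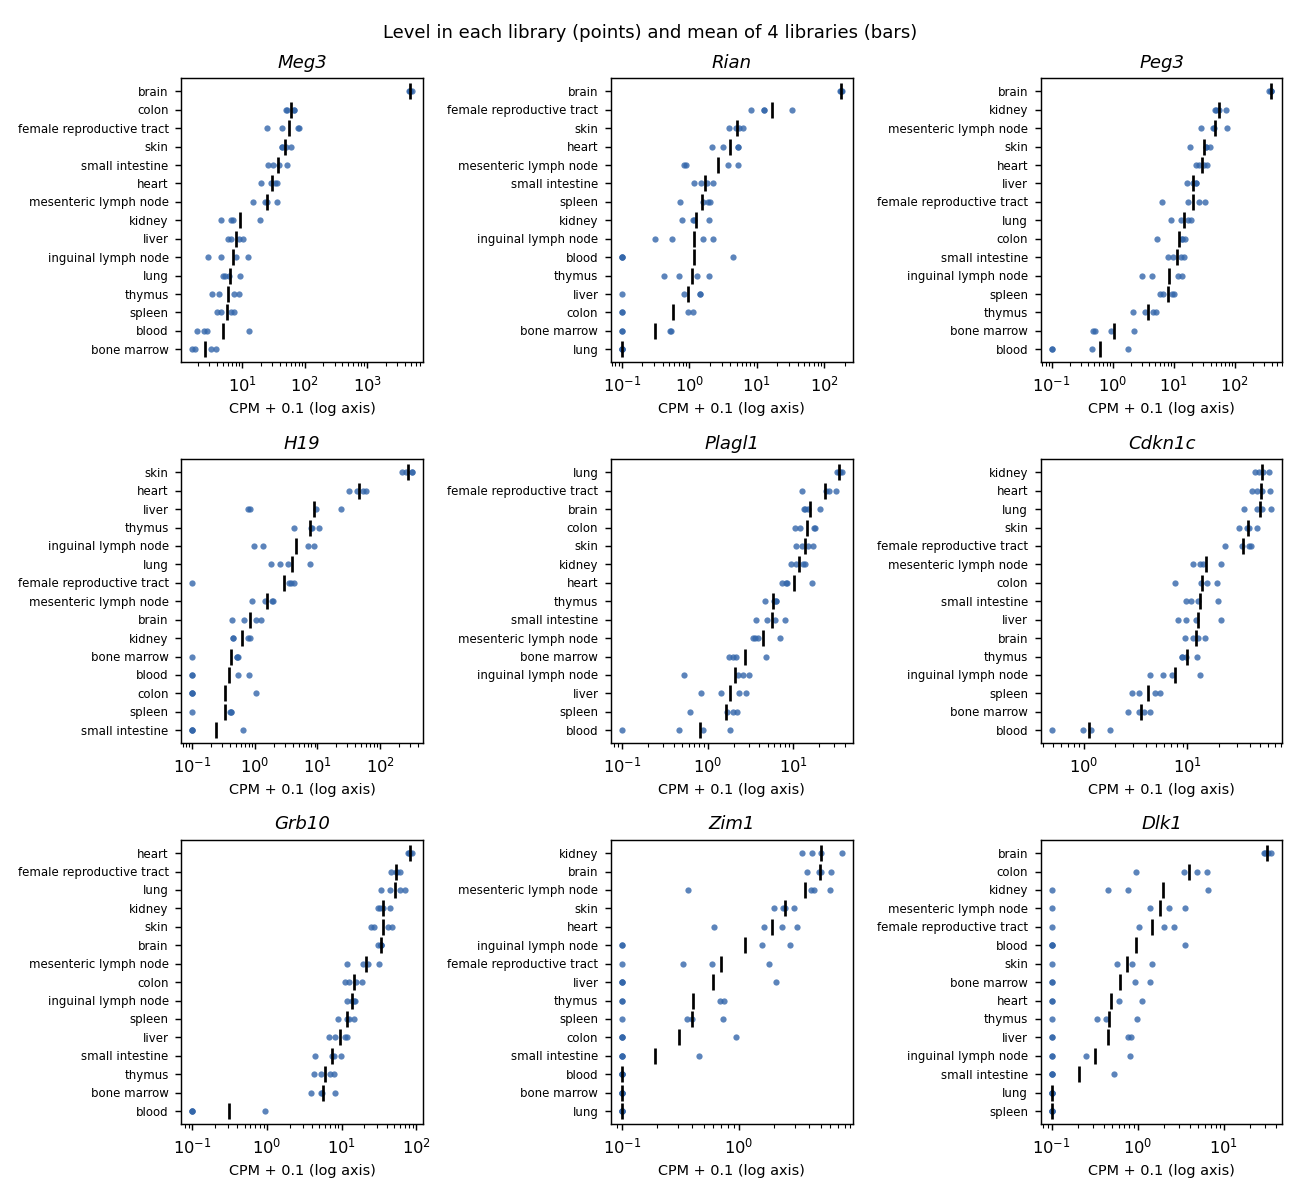
Level of 9 members in every library: points are single libraries, bars the mean of 4, rows the tissues ordered by mean, and the axis CPM + 0.1 on a log scale. The brain points of Meg3, Rian, Peg3 and Dlk1 stand clear of all others, as do the skin points of H19, while the upper tissues of Cdkn1c and Zim1 overlap.

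Peg3, a paternally expressed zinc finger protein studied in mice for its part in maternal behaviour and growth (chr7:6703892-6730431, minus strand), had 385, 398, 366 and 387 CPM in brain, a mean of 384 ± 13.2 CPM. The kidney libraries followed at 54.9, 47.6, 48.4 and 72.6 CPM and mesenteric lymph node at 27.4, 45.1, 44.2 and 73.4 CPM. Brain was thus 6.88-fold above kidney, and kidney and mesenteric lymph node overlapped. The log2 fold change against the other tissues was 5.20 ± 0.13 in brain, 2.21 ± 0.18 in kidney and 1.97 ± 0.18 in mesenteric lymph node. Skin at 1.33 ± 0.21 and heart at 1.18 ± 0.23 were also called higher, but the heart value turned to -0.17 under library totals, where the median of all genes in heart was -1.38 beside -0.12 with TMM. Peg3 was lowest in blood, with 3 reads in the 4 libraries, and in bone marrow, with 9 reads.

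Zim1, the maternally expressed zinc finger gene next to Peg3 (chr7:6671269-6696450, minus strand), was sparse, with 243 reads in all and none in blood, bone marrow or lung. The 4 kidney libraries held 4.09, 4.90, 3.38 and 7.48 CPM and the 4 brain libraries 4.76, 3.70, 5.97 and 4.94 CPM. These tissues overlapped and their order is not fixed by the data: brain was above kidney under library totals and under DESeq2's size factors. Mesenteric lymph node (3.61 ± 2.38 CPM), skin (2.36 ± 0.381 CPM) and heart (1.84 ± 1.07 CPM) came next, and all 5 tissues were called higher. The heart call was lost without heart replicate 1, at an adjusted p of 0.063. It was also lost under library totals, at a log2 fold change of 0.69, and with limma, at 0.70. Kidney exceeded the 0.577 CPM that 3 counts would give in lung by at least 8.61-fold. Usp29, a paternally expressed gene on the far side of Peg3, was at 56.01 ± 6.56 CPM in brain, with 0.436 CPM in small intestine as the next tissue.

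H19, a maternally expressed noncoding RNA (chr7:142575529-142578143, minus strand), was highest outside the brain. Skin held 222, 257, 323 and 325 CPM, a mean of 282 ± 50.8 CPM. Heart held 31.3, 58.6, 52.6 and 42.3 CPM, a mean of 46.2 ± 12 CPM, and neither tissue overlapped with the other or with any further one. Skin was 6.10-fold above heart, and 16.1-fold under library totals, and made up 78.5% of the sum of the 15 tissue means. Against the other tissues the log2 fold change was 7.6 ± 0.18 in skin (adjusted p = 1.3e-41) and 4.80 ± 0.27 in heart (adjusted p = 2.0e-23). Skin and heart were also the tissues with the highest summed level of 6 skeletal muscle genes, at 10577 to 14533 CPM in skin libraries and 1047 to 1318 CPM in heart libraries, and the part of muscle RNA in the H19 level of skin was not tested. Thymus reached 7.67, 10.3, 8.004 and 4.13 CPM of H19, with a log2 fold change of 2.05 ± 0.37 (adjusted p = 3.0e-06), while the skeletal muscle genes summed to 25.2 to 31.6 CPM there. Small intestine, spleen, blood, bone marrow and kidney were called lower. In brain H19 was at 0.560, 1.14, 0.943 and 0.329 CPM. It had no call there in the main fit, but was called lower with no filter, with DESeq2's Wald test and with limma.

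Igf2, the paternally expressed fetal growth factor that shares its enhancers with H19 (chr7:142650766-142666816, minus strand), had a single read in each of heart, brain and female reproductive tract and none in the other 12 tissues. Liver, the main source of circulating IGF2 before birth in mice, had 0 reads, where 3 counts over the 4 libraries would be 0.524 CPM. These counts cannot be read as the level of Igf2. In the GENCODE M21 annotation the gene model Gm49394 lies on the same strand and shares 3596 exonic bases, 62.8% of those of Igf2, and 497 of the last 500 at the 3′ end; it has 0 reads too, and the treatment of reads that overlap both genes is not known. Igf2os, on the opposite strand, had 12 reads in all.

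Cdkn1c, a maternally expressed inhibitor of cyclin-dependent kinases (chr7:143458339-143461050, minus strand), had an upper group of 5 tissues. Its level was 53.2, 44.8, 48.7 and 61.3 CPM in kidney, 46.5, 41.6, 52.1 and 63.1 CPM in heart and 34.9, 47.0, 52.3 and 64.7 CPM in lung, with full overlap. Skin (38.7 ± 6.34 CPM) and female reproductive tract (34.02 ± 8.16 CPM) overlapped with these. Every library of the 5 tissues lay above those of the next tissue, mesenteric lymph node, which held 11.2 to 21.04 CPM. All 5 were called higher, with log2 fold changes of 2.10 ± 0.14 in kidney, 2.06 ± 0.15 in heart, 2.04 ± 0.17 in lung, 1.65 ± 0.15 in skin and 1.55 ± 0.16 in female reproductive tract. Which of kidney, heart and lung is highest depends on the scaling, since lung led under library totals and under DESeq2's size factors. Blood was lowest, with 1.70, 0.888, 1.08 and 0.389 CPM. Of its cluster neighbours, Slc22a18, a membrane transporter, and Phlda2, a regulator of placental growth in mice, were also highest in kidney, at 522 ± 19.1 CPM and 15.1 ± 3.63 CPM, whereas the noncoding RNA Kcnq1ot1 was highest in brain at 574 ± 19.3 CPM and in thymus at 526 CPM.

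Grb10, an adaptor that dampens signalling from the insulin and IGF1 receptors (chr11:11930508-12038683, minus strand), is known in mice to be read from the maternal copy in most tissues and from the paternal copy in neurons. Heart held 80.3, 77.1, 82.5 and 87.3 CPM and lay above every other library. The female reproductive tract (53.6 ± 6.14 CPM) and lung (52.2 ± 16.4 CPM) overlapped with each other, as did kidney (35.4 ± 6.11 CPM), skin (35.04 ± 11.1 CPM) and brain (33.1 ± 1.43 CPM). These 6 tissues were called higher, led by heart with a log2 fold change of 2.71 ± 0.14 (adjusted p = 1.0e-25). Heart led with TMM and with DESeq2's size factors (79.5 CPM), but under library totals its mean was 33.9 CPM and the female reproductive tract was highest. In blood 1 Grb10 read was found in the 4 libraries.

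Plagl1, a paternally expressed zinc finger transcription factor that in mice is known to regulate other imprinted genes (chr10:13060504-13131694, plus strand), was highest in lung with 34.1, 36.6, 31.8 and 34.996 CPM. The female reproductive tract held 26.2, 31.2, 12.5 and 23.8 CPM, so the lung libraries lay above it without overlap, and lung was 1.47-fold higher on the means. Brain (15.5 ± 3.32 CPM), colon (14.3 ± 3.79 CPM), skin (13.7 ± 2.73 CPM), kidney (11.6 ± 2.02 CPM) and heart (10.0 ± 4.30 CPM) followed and overlapped with their neighbours. In this order lung had a log2 fold change of 2.71 ± 0.19 and female reproductive tract of 2.25 ± 0.18, and brain, colon, skin and kidney were also called higher. The kidney value of 1.04 ± 0.20 lay at the threshold and was lost with DESeq2's size factors, library totals, DESeq2's Wald test and limma, at 0.60 to 0.98. Blood, with 5 reads in the 4 libraries, was lowest.

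Read by tissue, the counts of members called divide the organs. Heart had 6 of 9 tested members called higher, where 20.7% of all genes were, and 2 (Grb10 and H19) under library totals, where 15.1% of the called genes of heart were higher against 61.6% with TMM. Kidney had 6 called higher, against 21.8% of all genes, and 2 lower (H19 and Meg3), against 9.52%; of the genes called in kidney, 49.8% were higher under library totals and 69.6% with TMM. The female reproductive tract had 5 called higher, against 23.1% of all genes, and 8 under library totals as well as without the 10 libraries that stood apart by markers of other cell types, Dlk1, H19 and Peg3 being the additions in both. Lung had 3 higher, against 16.8%, and 2 lower, against 12.3%. Colon had 3 higher, against 17.7%, and mesenteric lymph node 3 higher, against 17.2%.

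Blood and bone marrow had most members called lower, and the lymphoid organs fewer. In blood 6 of 9 members were called lower, where 17.8% of all genes were, and the other 3 had no call. Cdkn1c, with 8 reads in the 4 blood libraries, had a log2 fold change of -4.07 ± 0.38, Meg3 of -2.52 ± 0.38 and Plagl1 of -3.50 ± 0.46. Grb10, Peg3 and H19 were also called lower, on 1, 3 and 3 reads. Bone marrow had the same 6 genes called lower, against 16.1% of all genes, with Peg3 at -4.05 ± 0.52 and Meg3 at -3.18 ± 0.40. Spleen had 4 called lower, against 9.16%, and thymus had 3 called lower, against 12.1%, and H19 higher, against 18.9%. Inguinal lymph node had Meg3 and Plagl1 lower, against 6.7%, and H19 higher, against 17.1%. Liver had the same 3 calls, with 16.7% of all genes called lower and 18.4% higher, and small intestine had Grb10 and H19 lower, against 8.5%, and Meg3 higher, against 19.9%. The Grb10 call was lost with the replicate number as a block, at a log2 fold change of -0.99, and without the 10 libraries. For Rian, Zim1 and Dlk1 the test of a lower level is not informative in most tissues, because the mean of the other tissues includes tissues with 0 reads. With limma on log2 CPM, where such contrasts are finite, 8 of 9 members were called lower in blood, where 23.9% of all genes were, and 8 in bone marrow, where 22.5% were, Rian and Zim1 being the additions.

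Several member calls moved with markers of other cell types in single libraries. In liver, H19 was at 0.673, 0.725, 9.31 and 23.5 CPM in replicates 1 to 4, and the summed level of 6 skeletal muscle genes was 4.71, 12.3, 208 and 484 CPM in the same libraries. All 6 muscle genes had reads in replicates 3 and 4, against 2 of 6 in replicate 1, while in replicate 2 only Atp2a1 had none. Acta1 was at 1.35, 2.17, 96.4 and 250 CPM in replicates 1 to 4. The liver call for H19 (log2 fold change 2.18 ± 0.47) was lost without replicate 4, at 0.98 with an adjusted p of 0.17. It was also lost with limma, at 0.54. In lung, replicate 4 had the most H19, 7.61 CPM against 1.74 to 3.31 CPM, and 148 CPM of the muscle genes against 4.64 to 17.4 CPM. In heart replicates, the same genes varied little, from 1047 to 1318 CPM, which cannot tell the RNA of the organ itself from muscle carried in. H19 was called in heart with every library left out in turn.

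Kidney replicate 4 carried 370 CPM of 6 adrenal gland genes, all 6 with reads, against 4.77 to 20.0 CPM in the other kidney libraries. Among these were Star at 233 CPM and Cyp21a1 at 65.5 CPM. That library had 6.36 CPM of Dlk1, against 0, 0.350 and 0.677 CPM in the others, and 19.1 CPM of Meg3, against 4.55 to 7.10 CPM. Without it the Dlk1 value in kidney turned to -0.60, while Meg3 in kidney was still called lower; the Meg3 call was lost without replicate 2, at -0.97. Peg3 in kidney was highest in the same library, at 72.6 CPM, and was at 47.6 to 54.9 CPM in the other 3, which already exceeded every library of skin.

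In inguinal lymph node the 5 adipocyte genes summed to 171, 40.4, 2053 and 2016 CPM. Peg3 was at 4.28, 2.96, 11.7 and 13.7 CPM and H19 at 0.885, 1.27, 8.68 and 6.97 CPM in the same order, so both were high in the 2 libraries with most adipocyte RNA. The 6 fibroblast genes summed to 671, 539, 860 and 909 CPM there and were highest in the same 2 libraries. H19 lost its call there without replicate 3, at 0.42, and without replicate 4, at 0.65. The call was also lost with DESeq2's size factors, at 0.96, and with limma, at 0.25. In mesenteric lymph node the adipocyte genes summed to 1109, 3192, 3601 and 5911 CPM, with Peg3 at 27.4, 45.1, 44.2 and 73.4 CPM and Zim1 at 0.266, 4.00, 4.26 and 5.90 CPM. The fibroblast genes summed to 1071, 1392, 1477 and 1579 CPM in those libraries. Blood replicate 1 had 12.8 CPM of Meg3, 4.26 CPM of Rian and 3.41 CPM of Dlk1, where the other blood libraries had at most 2.66 CPM of Meg3 and no read of Rian or Dlk1. It carried 155 CPM of 5 hepatocyte genes against 39.1 to 45.2 CPM. Liver itself averaged 7.83 CPM of Meg3, 0.850 CPM of Rian and 0.350 CPM of Dlk1, with 138400 to 157608 CPM of the hepatocyte genes. In the female reproductive tract, 6 ovary genes summed to 351, 341, 160 and 106 CPM and Meg3 was at 81.9, 77.1, 43.6 and 24.7 CPM in the same libraries, while Rian was highest in replicate 3. The largest part of the ovary sum was Inha, at 263, 270, 118 and 44.2 CPM, whereas Zp3 was highest in replicate 3. The 6 uterus and oviduct genes summed to 743 to 873 CPM, with Pgr at 221, 151, 174 and 64.7 CPM and Ovgp1 at 159, 226, 208 and 333 CPM. The part of these other cell types in the member levels was not tested.

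**Figure D3:**
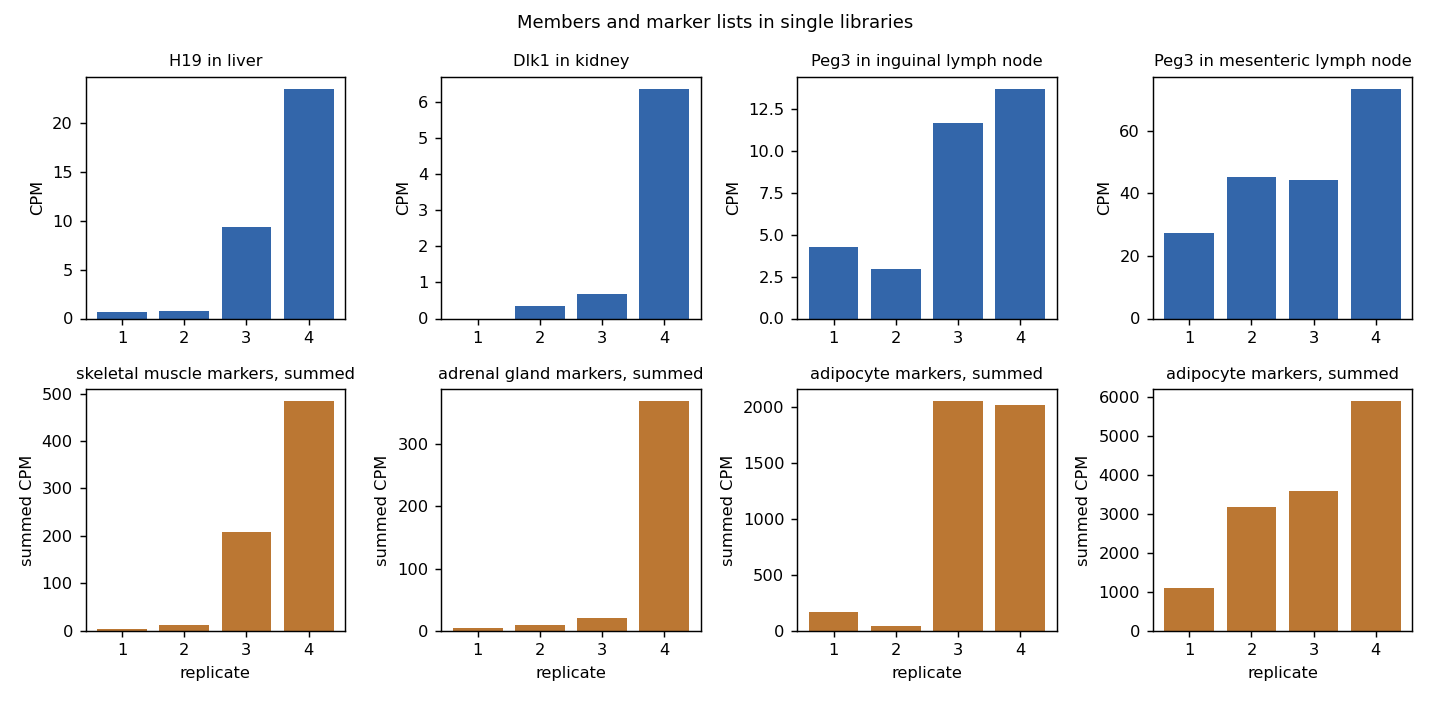
Level of 1 member in the 4 libraries of a tissue (upper row, CPM) above the summed CPM of a marker list in the same libraries (lower row); every bar starts at 0. H19 in liver is at 23.5 CPM where muscle genes are at 484 CPM, and Dlk1 in kidney at 6.36 CPM where adrenal genes are at 370 CPM.

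Pairs of tissues were also compared, each fitted on its own 8 libraries. Skin and female reproductive tract were paired as tissues that can both hold keratinocytes. Of 7 members tested, H19 was higher in skin, where 14.6% of all genes were, and Rian lower, where 14% were. H19 held 222 to 325 CPM in skin and 0 to 4.12 CPM in the female reproductive tract, a log2 fold change of 6.20 ± 0.32. Rian held 3.81 to 6.12 CPM in skin and 8.15 to 33.2 CPM in the female reproductive tract (log2 fold change -1.56 ± 0.42, adjusted p = 0.012). Meg3, Peg3, Cdkn1c, Grb10 and Plagl1 were not called, and in Plagl1, at -0.97 ± 0.26, the libraries overlapped.

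Small intestine was lower than colon in 2 of 5 tested members, where 12.2% of all genes were called lower. Plagl1 held 7.85, 4.79, 3.60 and 5.97 CPM in small intestine and 17.8, 10.3, 11.8 and 17.2 CPM in colon, without overlap (log2 fold change -1.52 ± 0.31). Grb10 held 4.34 to 9.59 CPM in small intestine and 11.02 to 18.5 CPM in colon (-1.09 ± 0.29, adjusted p = 0.0045), and its call was lost without colon replicate 3, at -0.95, or without small intestine replicate 4, at -0.92. Dlk1, too sparse for the fit, had 1 read in the 4 small intestine libraries and 16 reads in the 4 colon libraries. Rian, also not tested in this pair, went the other way, with 1.09 to 2.16 CPM in small intestine and 0 to 1.03 CPM in colon, without overlap. Cdkn1c and Peg3 overlapped between the 2 parts of the gut.

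Kidney was higher than liver in 4 of 5 tested members, where 21.8% of all genes were called higher. Plagl1 held 9.35 to 13.6 CPM in kidney and 0.725 to 2.66 CPM in liver (log2 fold change 2.66). Cdkn1c held 44.8 to 61.3 CPM in kidney and 7.97 to 20.9 CPM in liver (1.99). Grb10 held 30.3 to 44.1 CPM in kidney and 6.73 to 11.7 CPM in liver (1.89), and Peg3 47.6 to 72.6 CPM in kidney and 16.7 to 23.3 CPM in liver (1.37). None of the 4 overlapped between the organs. Meg3, at 4.55 to 19.1 CPM in kidney and 5.87 to 10.1 CPM in liver, overlapped and was not called.

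**Figure D4:**
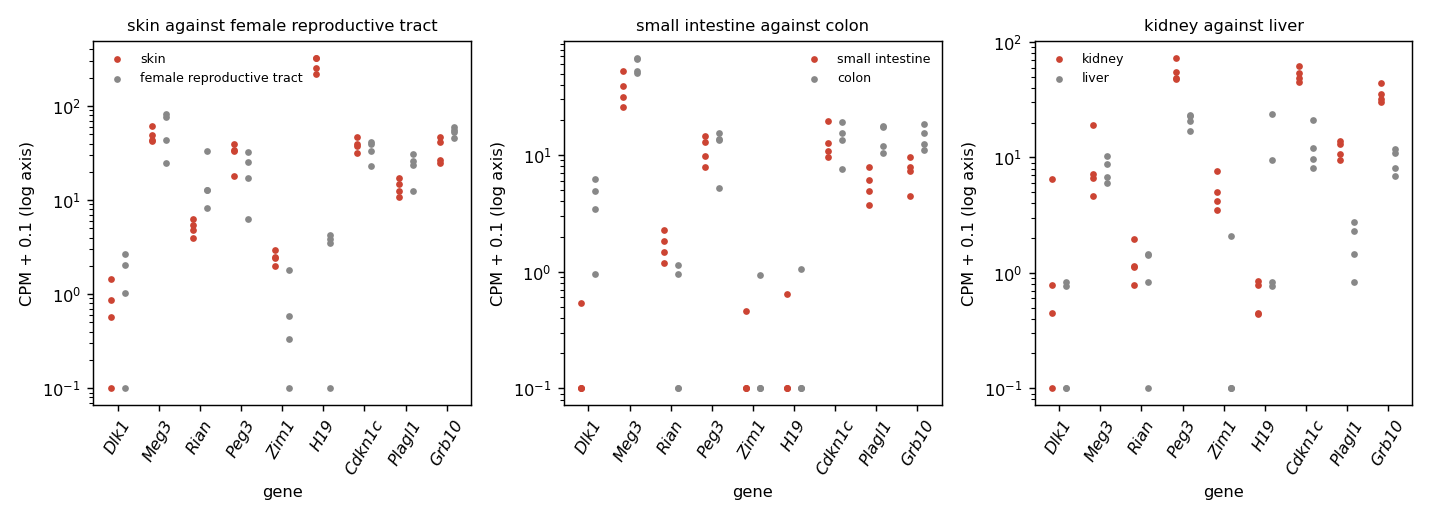
Level of 9 members in the libraries of 3 pairs of tissues, with the tissue named first in red and the other in grey; the axis is CPM + 0.1 on a log scale. H19 separates skin (222 to 325 CPM) from female reproductive tract (0 to 4.12 CPM), Plagl1 and Grb10 lie lower in small intestine than in colon, and Cdkn1c, Grb10, Peg3 and Plagl1 lie higher in kidney than in liver.

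A list of 32 other imprinted genes, of which 27 were tested, had most calls in brain. There 21 were called higher, against 27.7% of all genes, and 1 lower, against 16.1%, with a median log2 fold change of 3.12 beside 0.03 over all genes. The largest changes were those of Usp29 (8.67 ± 0.24), Rasgrf1 (8.26 ± 0.15), a guanine nucleotide exchange factor that was at 215 ± 18.9 CPM, Nap1l5 (7.91 ± 0.13) at 441 ± 10.0 CPM and Zdbf2 (6.77 ± 0.20) at 49.8 ± 8.45 CPM. Further genes with their highest mean in brain were Ndn at 155 ± 6.60 CPM, Snrpn at 177 ± 21.4 CPM and Nnat at 176 ± 10.4 CPM. The female reproductive tract had 14 of 27 called higher, against 23.1% of all genes, led by Peg10 (3.91 ± 0.38) and Nnat (3.42 ± 0.36). Bone marrow had 1 higher, against 17.6% of all genes, and 9 lower, against 16.1%. Thymus had 3 higher, against 18.9%, and 9 lower, against 12.1%. Liver had 3 higher and 5 lower, where 18.4% of all genes were higher and 16.7% lower, so its lower count is near that of all genes and its higher count below it. The largest change in liver was that of Slc38a4, an amino acid transporter, at 1106 ± 62.1 CPM (9.25 ± 0.12). Antisense and overlapping genes of the list, such as Kcnq1ot1 and Airn, are uncertain because the strand setting is not given.

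The genes of the IGF axis, 17 with Igf2 left aside and 15 of them tested, had most higher calls in the female reproductive tract, with 8 of 15, against 23.1% of all genes. Liver had 6 called higher, against 18.4%, and 4 lower, against 16.7%. Igf1, the growth factor of postnatal life, was at 1898 ± 236 CPM in liver and 211 CPM in the female reproductive tract, the next tissue, with a log2 fold change of 5.81 ± 0.11 in liver. The binding protein genes Igfbp1 (1327 ± 273 CPM), Igfbp2 (574 ± 196 CPM) and Igfbp4 (2620 ± 183 CPM), and Igfals (217 ± 32.1 CPM), which encodes a subunit of the circulating complex, were highest in liver too. Kidney had 7 of 15 called higher, against 21.8% of all genes, including Igfbp7 at 2128 ± 37.1 CPM and Igfbp3 at 394 ± 30.5 CPM. Igf1r, the receptor of IGF1, was highest in kidney at 336 ± 43.1 CPM, and Igf2r, the imprinted receptor that clears IGF2, was highest in heart at 168 ± 5.62 CPM (log2 fold change 1.86 ± 0.07). Brain had 3 called higher, against 27.7%, and 6 lower, against 16.1%. Blood had 1 higher, against 18.1%, and 9 lower, against 17.8%.

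The members' profiles over the 15 tissue means of log2(CPM + 1) were compared as a description, with tissues that share depth and composition. Within the chromosome 12 cluster the Pearson correlation was 0.90 for Meg3 and Rian, 0.86 for Meg3 and Dlk1 and 0.77 for Rian and Dlk1; without brain these were 0.65, 0.48 and 0.17. Peg3 and Zim1 had 0.82, and 0.77 without brain. Across loci, Cdkn1c and Grb10 had 0.89, and 0.91 without brain, and Plagl1 and Cdkn1c 0.82, and 0.85 without brain. H19 stood off from most members, with values between -0.23 for Dlk1 and 0.50 for Cdkn1c.

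Among 15208 genes with at least 5 CPM in 1 tissue, the 3 most like H19 over the tissues were Myot (0.93), Myl1 (0.92) and Klhl41 (0.90), all genes of striated muscle that were highest in skin. Those most like Meg3 were Fez1 (0.98), Iglon5 (0.97) and Fam171b (0.96), and those most like Rian were Pcdh11x (0.95), Cacna2d3 (0.95) and Tmem196 (0.95), all highest in brain. Cdkn1c was most like Tead1 (0.94), Amotl2 (0.94) and Wwtr1 (0.93), which encode a transcription factor and regulators of the Hippo pathway. Grb10 was most like Nenf (0.95), Dlc1 (0.91) and Lix1l (0.91), and Plagl1 most like Epb41l4a (0.91), Spry2 (0.91) and Sema3c (0.91). Peg3 was most like Trmt9b (0.93), Tcaf1 (0.92) and Kifap3 (0.92), Dlk1 like Rab39b (0.94), Rbm11 (0.94) and Hapln1 (0.94), and Zim1 like Ppp1r1a (0.87), Gpc6 (0.86) and Thsd7a (0.85).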

How the data were processed

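RNA of 15 tissues was sequenced as 3′ end libraries from barcoded oligo(dT) primers, 4 per tissue, per the labels' protocols. The deposited table holds raw counts of reads per gene; per the submitters' processing notes the authors used FastQC, STAR and featureCounts with mm10. Not given in the sources used here are versions, strand setting, annotation release and the treatment of reads that overlap genes. No molecular identifiers are described. The floors cover counting error only, while SD and SE also hold the spread between libraries. All values were whole numbers, and no 2 libraries were identical. Gene positions come from GENCODE M21, and 54409 of 54532 identifiers matched.

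Counts were scaled by TMM and tested with edgeR 4.0.16 in R 4.3.3 (filterByExpr at its settings of 10 per library and 15 in total, quasi-likelihood F test, Benjamini-Hochberg over all 18562 genes tested). All 60 libraries entered the contrasts of each tissue with the average log level of the other 14, and 3 pairs were fitted on their own 8 libraries. A call needs an adjusted p below 0.05 and a log2 fold change beyond 1, and SE is the log2 fold change over the root of F. The script was tested on simulated data. A floor is 3 counts over the 4 libraries of a tissue. Alternatives were library totals, DESeq2 size factors, no filter, a replicate block, DESeq2 1.42.0, limma 3.58.1 with a prior count of 2, each library left out, and, chosen after the marker values were seen, 10 libraries left out together.

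The members, the lists of other imprinted, IGF and marker genes, and the tests were chosen with earlier results of these data known. All members were named, with the value of every library in the tissue of the highest mean; from each list up to 4 called genes with at least 5 CPM were named by size of change, beside cluster neighbours chosen after their values were seen, and the 3 genes most like each member by Pearson correlation, leaving out unnamed gene models. The labels do not tie replicates to animals across tissues. The p-values measure the spread between libraries of the same tissue, estimated for each gene jointly over all tissues of a fit. This is not the spread of the tested tissue alone.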

Additional observations from a re-analysis of the deposited data

Results flagged for a closer look

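Of 100 groups of 4 libraries with a tissue mean of at least 1 CPM, 7 held a library far from the other 3 of its group by Dixon's criterion, where chance gives about 1 in 20 groups. Blood replicate 1 was high in Meg3, at 12.8 CPM where the nearest library had 2.66 CPM, and in Rian, at 4.26 CPM where the others had 0. The same library carried 155 CPM of hepatocyte markers, and liver itself averaged 7.83 CPM of Meg3 and 0.850 CPM of Rian. The part of liver RNA in these levels was not tested. Kidney replicate 4 was high in Dlk1, at 6.36 CPM where the nearest library had 0.677 CPM, and carried 370 CPM of adrenal gland markers.

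Plagl1 was high in heart replicate 2, at 16.5 CPM where the nearest library had 8.25 CPM. It was also high in mesenteric lymph node replicate 4, at 6.93 CPM against 3.73 CPM, and in bone marrow replicate 2, at 4.75 CPM against 2.06 CPM. Grb10 was low in brain replicate 4, at 30.9 CPM where the other 3 libraries held 33.6 to 33.9 CPM.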

How the results depend on the processing

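Of 53 single-gene calls (members called higher in a tissue and both directions in the pairs), 50 kept direction and call with DESeq2's size factors, 45 under library totals, 52 with no filter, 49 with DESeq2's Wald test, 45 with limma and 50 without the 10 libraries. Direction turned for Peg3 in heart under library totals (-0.17), for H19 in inguinal lymph node (-0.62), H19 in liver (-1.15) and Dlk1 in kidney (-0.34) without the 10 libraries, and for Dlk1 in kidney without kidney replicate 4 (-0.60); the cause was not tested. The count of members called was 5 in colon with limma (main 3), 8 in female reproductive tract under library totals and 8 without the 10 libraries (main 5), and under library totals 2 in heart (main 6), 5 in kidney (main 8) and 5 in liver (main 3). With each library of the compared tissues left out in turn it ranged from 5 to 7 in kidney and from 1 to 2 in small intestine against colon, and the Dlk1 value in kidney from -0.60 to 2.04. The calls of H19 in inguinal lymph node, Meg3 in small intestine and Plagl1 in kidney, all close to the threshold on the fold change, were also lost without single libraries of other tissues.

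Mean levels moved by more than 1 SD with DESeq2's size factors for Meg3 (5214 CPM), Rian (189 CPM) and Peg3 (410.5 CPM) in brain and Plagl1 in lung (36.8 CPM), and under library totals for Plagl1 in lung (43.6 CPM), Cdkn1c in kidney (39.2 CPM) and Grb10 in heart (33.9 CPM). Library totals moved the median of all genes by -1.26 in heart to 0.62 in kidney against liver and the share of higher calls by over 10 percentage points in 14 of 18 comparisons, limma in 14, DESeq2's Wald test in 7 and no filter in 2. In liver the share was 19.5% under library totals and 52.5% with TMM. The heart, kidney and liver counts therefore depend on the scaling.

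Replicate numbers were not treated as pairs in the main fit. Libraries of the same number in different tissues had a median correlation of their deviations of 0.016 over 420 pairs of libraries, from -0.148 to 0.222. For libraries of different numbers the median was -0.006 over 1260 pairs. Yet 48 of 60 libraries correlated best with their own number, so the small median does not show that the numbers are unrelated. With the replicate block all 53 single-gene calls were kept, for example 7 members in brain. Among the other member tests Grb10 in small intestine was no longer called lower (-0.99) and H19 in female reproductive tract was called higher (1.07). Genes with few reads, Zim1 (243 reads) and Dlk1 (530 reads), are limited by depth.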

Other observations

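Some other imprinted genes were highest outside the brain. Ascl2, a transcription factor of intestinal stem cells in mice, was at 16.4 ± 3.57 CPM in skin (log2 fold change 5.33 ± 0.29), and was also called higher in colon (12.4 CPM) and small intestine (11.8 CPM). Peg10, a retrotransposon-derived gene, was highest in blood at 25.1 ± 8.71 CPM (log2 fold change 5.38 ± 0.29), where 6 of the growth genes were called lower. Asb4 was highest in heart at 10.3 ± 2.90 CPM, and Sgce, a sarcoglycan, in lung at 61.8 ± 4.85 CPM (log2 fold change 2.32 ± 0.16). No explanation for these levels was tested.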
